A study of Mus musculus with 12 samples.

Results

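The regions described here carried counts of both H3K4me3 and H3K27ac in every library of those marks, in either genotype, and lacked H3K23ac in at least 1 library. They were chosen by their counts, as the rows of the deposited count table with a count of 5 or more in each of the 4 H3K4me3 and each of the 4 H3K27ac libraries, and a count of 0 in at least 1 of the 4 H3K23ac libraries. The rule kept 763 of 1192075 regions, or 0.064%. The first part of the rule alone kept 1648 regions, and the other 885 of these, with a count in all 4 H3K23ac libraries, serve as the comparison. Since the rule used the counts of all 12 libraries, the levels are given as a description without a test.

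Endothelial cells were isolated from mouse lung of WT animals, labelled Cre-negative, and of CSE-KO animals, labelled Cre-positive. CSE is cystathionine gamma-lyase, encoded by Cth, which releases cysteine from cystathionine. The labels do not name the driver of Cre, the age of the mice or whether replicates are different animals, so the spread behind each p-value is that between these libraries and may be technical. Cre and the loss of CSE go together in the groups, and their effects cannot be told apart. The marks were profiled by ACT-seq, in which an antibody bound to Protein A and the transposase Tn5 cuts and tags chromatin next to the modified histone, with 2 libraries for each genotype and mark. In a pool of cells, a mark on fewer cells and a weaker mark on each cell cannot be told apart.

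H3K4me3, trimethylation of lysine 4 of histone H3, is laid down by methyltransferases of the SET1 and MLL complexes and is a hallmark of active promoters. H3K27ac, acetylation of lysine 27, is written by the coactivators CBP and its paralog at active promoters and at active enhancers, so that both marks together are the usual signature of a promoter in use. H3K23ac, acetylation of lysine 23, is a less studied mark that MYST-family acetyltransferases can write. Each region in the table has a list number. A list is named after the library of that number in sample order, which is an assumption. Regions have a running number too, but no coordinates, genes or lengths. It is therefore not known here whether the 763 regions are promoters, no endothelial marker gene and no check of Cth could be read from them, and no sequence is shown for them. Levels are CPM, counts scaled to a library total of 1000000, not divided by region length, so differences in level between regions can reflect their length.

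Depth differed between marks, and CSE-KO H3K27ac replicate 1 was the deepest library. Library totals were 396441 to 563755 counts for H3K4me3 and 1466588 to 1908675 for H3K23ac, and for H3K27ac 1110254 to 1351854 in 3 libraries and 4242014 in CSE-KO replicate 1. A count of 5, the minimum of the rule, therefore stood for 8.87 to 12.6 CPM in the H3K4me3 libraries, for 3.7 to 4.5 CPM in 3 of the H3K27ac libraries, and for 1.18 CPM in CSE-KO H3K27ac replicate 1. Counts in the 763 regions differed between replicates by more than counting noise in each of the 4 groups tested between genotypes, and these libraries were kept as separate samples. The chi-square per degree of freedom was 1.25 and 1.46 for WT and CSE-KO H3K27ac, and 3.22 and 2.22 for H3K4me3. For H3K23ac the rule builds in such differences, and no ratio is given.

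These regions took a larger share of the H3K4me3 libraries than of the H3K27ac libraries. Their median level was 40.4 and 30.2 CPM in the WT H3K4me3 libraries and 44.3 and 41.4 CPM in the CSE-KO H3K4me3 libraries. The median H3K27ac level was 5.92 and 7.21 CPM in WT and 6.13 and 7 CPM in CSE-KO, and the genotypes overlapped. Together the regions held 3.57% ± 0.475 of the H3K4me3 counts in WT and 4.1% ± 0.0679 in CSE-KO, but 0.634% ± 0.0759 and 0.579% ± 0.0397 of the H3K27ac counts (SD, n = 2 each). H3K4me3 ranged most widely, from the minimum of the rule to 482 CPM in WT replicate 1 and 596 CPM in WT replicate 2, while the highest H3K27ac level in a library ran from 61.4 to 91 CPM. For 626 of the 763 regions an H3K27ac library held the lowest of the 8 counts, alone or tied with an H3K4me3 library. This covers kept regions only and does not show which mark left other regions out.

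**Figure D1:**
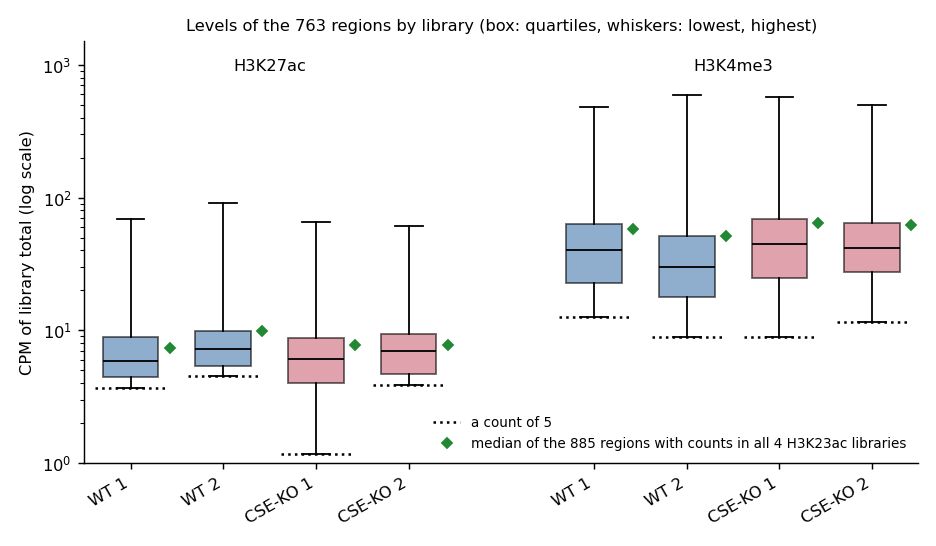
Levels of the 763 regions in the 8 H3K27ac and H3K4me3 libraries, in CPM of the library total on a log axis, with boxes for quartiles, whiskers to the lowest and highest region, dotted lines at a count of 5 and diamonds at the median of the 885 regions with counts in all 4 H3K23ac libraries. H3K4me3 medians lie between 30.2 and 44.3 CPM and H3K27ac medians between 5.92 and 7.21 CPM, each below the diamond of its library.

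Regions with counts in all 4 H3K23ac libraries had more of both other marks. Their median level was 51.5 to 63.9 CPM in the 4 H3K4me3 libraries and 7.4 to 9.91 CPM in the 4 H3K27ac libraries, above the median of the 763 regions in 8 of 8 libraries. Within the 763 regions the median level was lower the more H3K23ac libraries were at 0. The geometric mean level of H3K4me3 had a median of 39.8 CPM in regions with 1 such library, 33.4 with 2, 27.3 with 3 and 23 with all 4. That of H3K27ac had medians of 6.79, 6.17, 6.02 and 5.44 CPM. The regions are not independent replicates and no test was run on these medians, and the part that region length plays in them was not tested.

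Of the rule's threshold, 320 regions (41.9%) had a lowest count of exactly 5, and 75 had a lowest count of 10 or more. Just outside, 605 regions with a lowest count of 4 met the H3K23ac part of the rule. The regions just inside had a median H3K4me3 level of 30.6 CPM and a median H3K27ac level of 5.3 CPM, and those just outside 24.5 and 4.53 CPM.

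The 2 regions with the highest level over both marks show the usual order of the marks. The region peak11_14836, of the list of CSE-KO H3K4me3 replicate 1, had 482 and 504 CPM of H3K4me3 in WT and 573 and 497 CPM in CSE-KO. Its H3K27ac was 20.7 and 31.5 CPM in WT and 27.6 and 24.1 CPM in CSE-KO. For both marks the genotypes overlapped. Its H3K23ac was 0 in both WT libraries and 47.7 and 55.2 CPM in CSE-KO. The region peak8_96644 had 295 and 151 CPM of H3K4me3 in WT and 229 and 248 CPM in CSE-KO, with 17 and 18 CPM of H3K27ac in WT and 22.4 and 26.4 CPM in CSE-KO. It had H3K23ac counts in 3 libraries, 12.7, 29.3 and 15.7 CPM, and none in WT replicate 2.

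H3K4me3 exceeded H3K27ac in nearly all regions, by a ratio that varied widely. In 679 of 763 regions (89%) the lowest H3K4me3 level of the 4 libraries was above the highest H3K27ac level. The same held for 770 of the 885 comparison regions (87%). The log2 ratio of H3K4me3 to H3K27ac, from geometric means over 4 libraries each, had a median of 2.46, with 1 in 10 regions below 1.22 and 1 in 10 above 3.73. It had a median of 2.88 in the 885 regions with counts in all 4 H3K23ac libraries, and within the 763 regions it went from 2.62 with 1 H3K23ac library at 0 to 2.37 with 2, 2.21 with 3 and 2.20 with 4. A CPM is a share of the library, so this ratio compares shares and not the number of modified histones, and a count of 5 asks for a higher CPM in the shallower H3K4me3 libraries.

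The ends of this range had opposite balances of the marks. At the H3K4me3 end, peak6_35927 had 346 and 596 CPM of H3K4me3 in WT and 445 and 386 CPM in CSE-KO. Its H3K27ac was 12.6 and 5.4 CPM in WT and 11.1 and 12.4 CPM in CSE-KO, a 44.1-fold ratio of H3K4me3 to H3K27ac. The region peak6_57891, with a 41.6-fold ratio, had 346 and 364 CPM of H3K4me3 in WT and 263 and 326 CPM in CSE-KO, against 7 to 9.67 CPM of H3K27ac. Both came from the list of WT H3K4me3 replicate 2, the library with their highest H3K4me3 counts.

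At the other end, 8 of the 763 regions had less H3K4me3 than H3K27ac. In peak9_182705, of the list of CSE-KO H3K27ac replicate 1, H3K27ac was 64.4 and 44.1 CPM in WT and 58.2 and 61.4 CPM in CSE-KO. H3K4me3 was 32.8 and 16 CPM in WT and 8.87 and 11.5 CPM in CSE-KO, and H3K27ac exceeded it 3.71-fold over all libraries. The H3K4me3 values of the genotypes did not overlap in this region, on 9 and 13 counts for WT against 5 in each CSE-KO library, and the difference did not pass (log2 fold change of -1.23, standard error 0.87, edgeR adjusted p = 1). In peak7_110848, H3K27ac was 32.5 and 91 CPM in WT and 65.1 and 57.5 CPM in CSE-KO, against 15.1 and 12.4 CPM of H3K4me3 in WT and 23.1 and 57.5 CPM in CSE-KO. Here H3K27ac exceeded H3K4me3 2.58-fold, and H3K23ac was counted in 3 libraries, at 63.7, 90.1 and 19.8 CPM.

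The levels of the 2 marks were only weakly related across the regions. Spearman's coefficient between the mean log2 CPM of H3K27ac and of H3K4me3 was 0.109 over the 763 regions, and Pearson's was 0.117. Within genotypes Spearman's coefficient was 0.072 in WT and 0.126 in CSE-KO. Between single libraries of different marks it had a median of 0.0731 over 16 pairs (-0.0045 to 0.177), whereas pairs of the same mark had medians of 0.443 for H3K27ac (6 pairs, 0.376 to 0.55) and 0.663 for H3K4me3 (6 pairs, 0.594 to 0.749). Each pair within a mark thus ranked the regions more alike than any pair across the marks. In the 885 regions with counts in all 4 H3K23ac libraries the coefficient of levels was 0.124 and that over 16 pairs had a median of 0.128 (0.0279 to 0.187). These coefficients are descriptions over regions, which share libraries and depth, and the rule removed the low end of both marks. So low a coefficient at these counts is no finding of a relation.

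**Figure D2:**
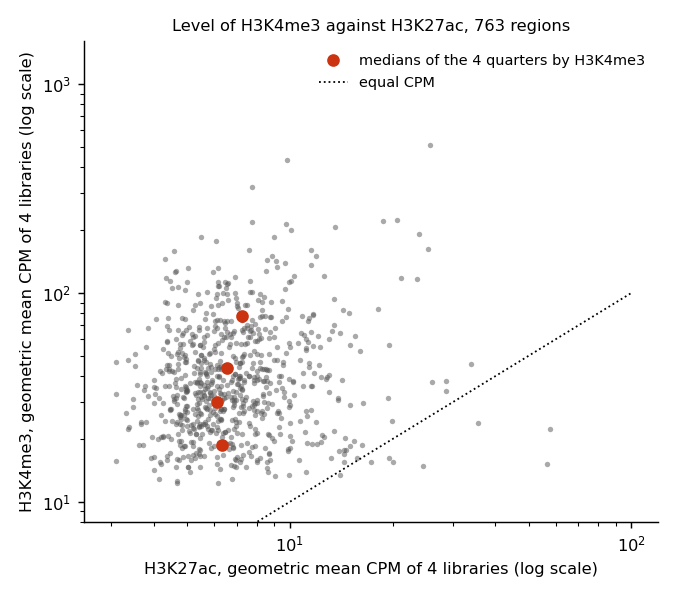
H3K4me3 against H3K27ac in the 763 regions, each as the geometric mean CPM of 4 libraries on log axes, with a dotted line at equal CPM and larger points at the medians of 4 equal groups ranked by H3K4me3. The medians of H3K27ac lie between 6.1 and 7.26 CPM while those of H3K4me3 go from 18.8 to 77.6 CPM.

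Ranked by H3K4me3 and split into 4 equal groups, the regions had median H3K4me3 levels of 18.8, 30.2, 43.7 and 77.6 CPM. Their median H3K27ac levels were 6.34, 6.1, 6.55 and 7.26 CPM. In each of these groups 8 in 10 regions spanned 4.37 to 13.2, 4.46 to 9.61, 4.63 to 11 and 4.71 to 11.9 CPM of H3K27ac, so the groups overlapped almost fully. The coefficient of levels was 0.28 in the 140 regions of the H3K4me3 lists, 0.133 in the 509 of the H3K23ac lists and 0.0856 in the 114 of the H3K27ac lists. In the 75 regions with counts of 10 or more in all 8 libraries it was 0.262.

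H3K23ac was seldom absent altogether from these regions. It was at 0 in 1 library for 468 regions (61.3%), in 2 for 192 (25.2%), in 3 for 89 (11.7%) and in all 4 for 14 (1.83%). In 567 regions (74.3%) at least 1 H3K23ac library held 20 counts or more, and in 234 regions (30.7%) each of 3 libraries held 5 or more. In 57 regions (7.47%) no H3K23ac library had more than 3 counts, the level below which a count of 0 cannot be told from a low one. Those 3 counts stand for 1.57 to 2.05 CPM in these libraries. The rule thus selects mostly regions where H3K23ac was uneven between libraries, and the name of regions without consistent H3K23ac holds for them better than regions without the mark.

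One library gave more zeros than any other, 49.3% of the 1175 in the 4 H3K23ac libraries. WT H3K23ac replicate 2 was at 0 in 579 of the 763 regions (75.9%), against 146 (19.1%) for WT replicate 1, 272 (35.6%) for CSE-KO replicate 1 and 178 (23.3%) for CSE-KO replicate 2. For 327 regions (42.9%) it was the only H3K23ac library at 0, and without it the rule would have kept 436 regions. It placed 93.4% of its counts on the list of regions numbered for it and had 121576 counts elsewhere, whereas the other 3 libraries had 271365 to 300789 counts outside their own lists. Over all 1648 regions that met the first part of the rule, which did not use H3K23ac, its share was the lowest but close to that of WT replicate 1. These regions held 2.67% of its counts (Wilson 95% interval 2.65 to 2.69), against 2.75% (2.72 to 2.77) in WT replicate 1 and 3.53% (3.50 to 3.56) and 4.26% (4.22 to 4.29) in the CSE-KO libraries. Such intervals hold counting error alone and not the spread between replicates. The part of this library's narrow coverage in the choice of regions was not tested further.

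**Figure D3:**
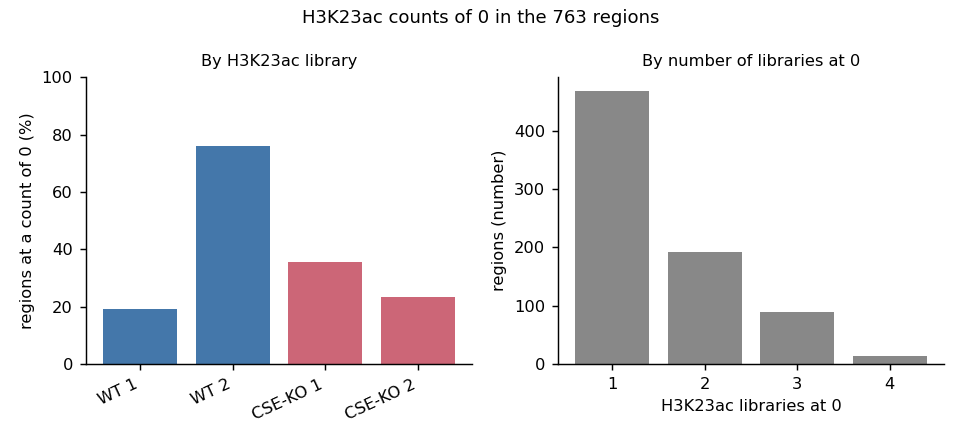
Regions with an H3K23ac count of 0, as a percent of the 763 regions in each of the 4 H3K23ac libraries (left) and as the number of regions by how many of the 4 libraries were at 0 (right). WT replicate 2 stands at 75.9%, the other 3 libraries at 19.1% to 35.6%, and 468 regions had a single library at 0.

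The regions richest in H3K23ac lacked it in that library alone. The region peak7_6197, with 413 H3K23ac counts in all, had 109 counts in WT replicate 1, none in WT replicate 2, and 239 and 65 in the CSE-KO libraries. It had 65.6 and 135 CPM of H3K4me3 in WT and 117 and 120 CPM in CSE-KO, and 4.66 to 12.6 CPM of H3K27ac. The region peak7_16702, with 302 H3K23ac counts, had 25 in WT replicate 1, none in WT replicate 2, and 230 and 47 in the CSE-KO libraries, with 63.1 and 35.5 CPM of H3K4me3 in WT and 88.7 and 66.7 CPM in CSE-KO. In 659 regions (86.4%) more H3K23ac counts came from 1 library than from the other 3 together, and in 171 (22.4%) over 90% did.

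The 14 regions at 0 in all H3K23ac libraries still carried both other marks. The one with the highest level, peak9_6748, had 63.1 and 46.2 CPM of H3K4me3 in WT and 55 and 41.4 CPM in CSE-KO. Its H3K27ac was 7.4 and 6.3 CPM in WT and 7.78 and 9.33 CPM in CSE-KO. The next, peak9_183352, had 55.5 and 14.2 CPM of H3K4me3 in WT and 55 and 52.9 CPM in CSE-KO, and 5.92 and 8.11 CPM of H3K27ac in WT and 8.96 and 10.1 CPM in CSE-KO. In both regions neither mark passed the edgeR test between genotypes.

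By genotype, H3K23ac was at 0 in both WT libraries in 86 regions and in both CSE-KO libraries in 80. A count of 5 or more in both CSE-KO libraries with 0 in both WT libraries was seen in 16 regions, peak11_14836 among them, and the reverse in 7. WT replicate 2 had 49.3% of the zeros, and the rule used these counts, so no difference between genotypes is read from them.

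The regions came from all 12 lists, unevenly. Lists of H3K23ac libraries gave 509 (66.7%), those of H3K27ac libraries 114 (14.9%) and those of H3K4me3 libraries 140 (18.3%), while these lists held 35.6%, 47.7% and 16.7% of all regions in the table. In the 885 regions with counts in all 4 H3K23ac libraries the shares were 78.9%, 6.55% and 14.6%. Most regions with both marks in every library had thus been named in an H3K23ac library. This held less often for the 763 regions, where the rule asked for an H3K23ac library at 0, than for the 885. Of the 509, 29 had a count of 0 in the very library whose list they came from, 19 of them in the list of WT H3K23ac replicate 2. That also holds for 42.4% to 76.3% of all regions in each of the 12 lists, and how reads over several overlapping regions were counted is not given in the sources used here. No 2 of the 763 regions had the same 12 counts, and 12 had a neighbour by running number in their list. Entries of 1 locus from different lists, with shifted borders, could not be looked for without coordinates.

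The level of each mark followed the list of origin. Regions of the H3K4me3 lists had a median H3K4me3 level of 55.5 CPM, those of the H3K23ac lists 35.1 CPM and those of the H3K27ac lists 29.1 CPM. For H3K27ac the medians were 6.2, 6.27 and 8.32 CPM in the same order. Each list held a larger share of the counts of the library it is numbered for than of all regions, so these values describe the lists and support no difference between kinds of region.

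H3K27ac was compared between CSE-KO and WT in a fit of 100566 regions, which included all 763. None of the 763 passed edgeR's quasi-likelihood test at an adjusted p of 0.05, against 4 of all regions tested, or 0.00398%. The lowest adjusted p among the 763 was 1, and 13 had an unadjusted p under 0.05 (1.7%, against 4.07% of all tested), 1 of them higher and 12 lower in CSE-KO (2.27% and 1.8% of all tested). With TMM factors 16 of the 763 had an unadjusted p under 0.05 (2.1%, against 4.31%), 1 higher and 15 lower (2.19% and 2.12% of all tested). DESeq2's Wald test called 0 of all regions, with 5 of the 763 at an unadjusted p under 0.05 (0.655%, against 0.709% of all tested). The rule asks for counts in both genotypes and so leaves out regions that a genotype lacks, which bounds these fold changes from the start. In simulated data on the 100566 regions, rises in CSE-KO were set in regions with a mean count of 10 or more. The test recovered 0% of 2-fold, 10% of 4-fold, 72% of 8-fold and 98% of 16-fold rises. Rises of 2-fold and 4-fold were thus mostly not detectable there. Falls, and changes in regions with lower counts, were not simulated.

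The fitted H3K27ac fold changes had a median of -0.17 on the log2 scale (8 in 10 between -0.84 and 0.45, 297 of 763 above 0), against 0.03 over all tested regions, a gap of -0.20. In the 885 regions with counts in all 4 H3K23ac libraries the median was -0.18. The median level of the 763 regions was 6.56 ± 0.911 CPM in WT and 6.56 ± 0.614 CPM in CSE-KO (SD, n = 2 each). With TMM factors the median fold change was -0.20 against 0.01 over all tested regions, a gap of -0.21. Leaving out WT replicate 1 gave -0.27 against 0.07, a gap of -0.34, and leaving out CSE-KO replicate 2 gave -0.25 against 0.03, a gap of -0.27. Without WT replicate 2 the median fold change was 0.03 against 0.17, a gap of -0.14, and without CSE-KO replicate 1 it was -0.09 against -0.04, a gap of -0.05. In the 309 regions that met 1 CPM minimum for all libraries of a mark (4.5 CPM for H3K27ac) the median with library totals as size was -0.07. A count of 5 admits regions at a lower CPM in CSE-KO replicate 1 than elsewhere, and its part in the median was not tested. For single regions, the SD of the genotype difference was 0.495, and 0.478 would follow from the differences between replicates alone. In regions of H3K27ac lists, the median difference in mean log2 CPM was 0.17 for CSE-KO lists (103 regions). It was -0.62 for WT lists (11 regions). In H3K23ac lists it was -0.20 for CSE-KO lists (347 regions) and -0.19 for WT lists (162 regions). H3K4me3 lists gave -0.13 (78 regions) and -0.22 (62 regions). The part of the list of origin was not tested.

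H3K27ac of the groups did not overlap in 78 regions higher in CSE-KO (10.2%, against 19.9% of all tested) and in 155 lower (20.3%, against 13.6%). With TMM factors this held for 70 higher (9.17%, against 18.5%) and 187 lower (24.5%, against 15.3%). The lowest p for a fall belonged to peak1_147127, of the list of WT H3K23ac replicate 1. Its H3K27ac was 26.6 and 7.21 CPM in WT (36 and 8 counts), against 2.59 and 6.22 CPM in CSE-KO (11 and 8 counts). One WT library stood well above the other 3. The fitted log2 fold change, -2.13 (standard error 0.67), did not pass (edgeR adjusted p = 1), and without WT replicate 2 it was called, with a value of -2.81 and an adjusted p of 0.00606 for edgeR. Without WT replicate 1, the one high library, it was -0.91 (edgeR adjusted p = 0.794). Its H3K4me3 was 17.7 and 14.2 CPM in WT and 16 and 11.5 CPM in CSE-KO.

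H3K4me3 was likewise compared in 18439 regions with all 763 among them. None of the 763 and none of all regions passed edgeR's test (0%), with a lowest adjusted p of 0.2 among the 763. An unadjusted p under 0.05 was found in 36 of the 763 (4.72%, against 4.37% of all tested), 30 higher and 6 lower in CSE-KO (3.36% and 1% of all tested), and with TMM factors in 32 (4.19%, against 4.31%), 20 higher and 12 lower (2.47% and 1.84% of all tested). DESeq2 called 0 of all regions, with 11 of the 763 at an unadjusted p under 0.05 (1.44%, against 1.51% of all tested). In simulated data on the 18439 regions, with rises set in the same way, 2% of 2-fold and 52% of 4-fold rises were recovered. For 8-fold and 16-fold rises it was 98% and 100%.

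Fitted H3K4me3 fold changes had a median of 0.21 on the log2 scale in the 763 regions (8 in 10 between -0.46 and 0.95, 504 of 763 above 0), against 0.13 over all tested regions and 0.06 in the 885 regions with counts in all 4 H3K23ac libraries. With TMM factors these medians were 0.07 in the 763 regions and -0.01 over all tested, so the scaling moved both by over 0.1, and the 763 lay 0.08 above all tested regions under either scaling. That gap was 0.15 without WT replicate 1, and it changed sign without WT replicate 2 (-0.02) and without a filter on low counts (-0.04). The median level was 35.3 ± 7.2 CPM in WT and 42.9 ± 2.09 CPM in CSE-KO (SD, n = 2 each), a difference close to the spread between the WT libraries. WT replicate 2 was the lowest of the 4. The median fold change was 0.42 without WT replicate 1 and 0.11 without WT replicate 2. Groups did not overlap in 207 regions higher in CSE-KO (27.1%, against 21.8% of all tested) and 61 lower (7.99%, against 12.4%), and with TMM factors in 158 higher and 97 lower (all tested 17.8% and 16.2%). The SD of the genotype difference was 0.574, and 0.56 would follow from the replicates alone. In regions of H3K4me3 lists, the median difference in mean log2 CPM was 0.49 for CSE-KO lists (78 regions). It was -0.05 for WT lists (62 regions). In H3K23ac lists it was 0.22 for CSE-KO lists (347 regions) and 0.17 for WT lists (162 regions). H3K27ac lists gave 0.40 (103 regions) and 0.22 (11 regions). The part of the list of origin in these differences was not tested.

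**Figure D4:**
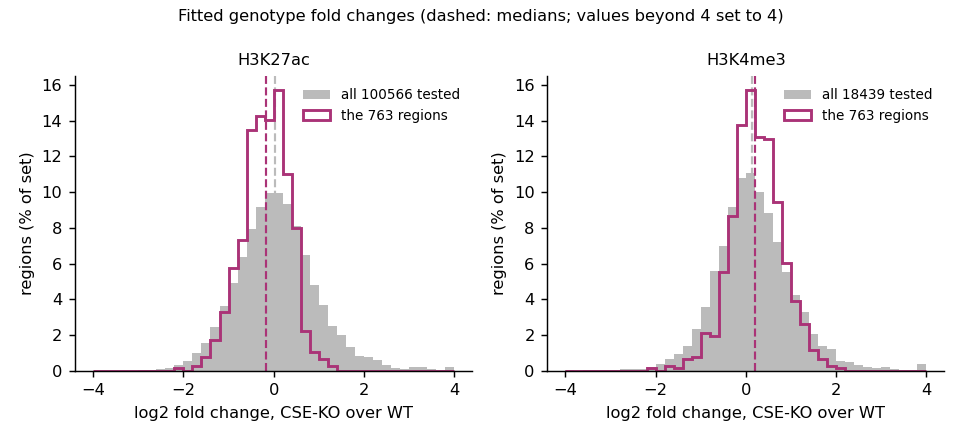
Fitted log2 fold changes of CSE-KO over WT for H3K27ac (left) and H3K4me3 (right), as the percent of regions per bin, for all tested regions (grey) and the 763 regions (outline), with dashed lines at the medians. The medians of the 763 regions are -0.17 and 0.21, those of all tested regions 0.03 and 0.13, and the distributions overlap.

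The region with the lowest p for higher H3K4me3, peak7_60831, was also the one with the lowest p for higher H3K27ac. Its H3K4me3 was 98.4 and 44.4 CPM in WT (39 and 25 counts) and 248 and 322 CPM in CSE-KO (140 and 140 counts). Both CSE-KO libraries were above both WT libraries. The fitted log2 fold change, 2.02 (standard error 0.39), did not pass over all tested regions (edgeR adjusted p = 0.2, DESeq2 adjusted p = 0.0908). It was called with the replicate number as a block (edgeR adjusted p = 0.0157) and without a filter on low counts (0.00436 by edgeR). It was not called with TMM factors (edgeR adjusted p = 0.234), DESeq2 size factors (0.239) or edgeR's filterByExpr (0.23). Without 1 library the log2 fold change ran from 1.53, without WT replicate 2, to 2.67, without WT replicate 1.

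In the same region H3K27ac was 8.14 and 7.21 CPM in WT and 10.1 and 29.5 CPM in CSE-KO, and the groups again did not overlap, with 1 CSE-KO library well above the other. The fitted log2 fold change of H3K27ac, 1.29 (standard error 0.62), did not pass (edgeR adjusted p = 1), and without CSE-KO replicate 2 it was 0.40. H3K23ac, which the rule used, had 1 count in WT replicate 1, none in WT replicate 2, and 82 and 84 counts in the CSE-KO libraries. The region came from the list of CSE-KO H3K23ac replicate 1.

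Lower H3K4me3 had its lowest p in peak1_53858, of the list of WT H3K23ac replicate 1. It had 116 and 30.2 CPM in WT and 8.87 and 27.6 CPM in CSE-KO, so that the nearest libraries of the groups almost met. The fitted log2 fold change, -2.01 (standard error 0.7), did not pass (edgeR adjusted p = 1), and it was called without WT replicate 2, at -2.71 (adjusted p = 0.0412 by edgeR). Without WT replicate 1 it was -0.77 (edgeR adjusted p = 0.686). H3K27ac went from 15.5 and 9.91 CPM in WT to 6.36 and 10.1 CPM in CSE-KO, and the groups overlapped.

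A fit of all 8 libraries over 126134 regions asked whether the genotype effect on H3K4me3 differed from that on H3K27ac. None of the 763 and none of all regions passed (0%, edgeR, lowest adjusted p of 0.934 among the 763), and 19 of the 763 had an unadjusted p under 0.05 (2.49%, against 5.3% of all tested). Of these, 18 had the higher H3K4me3 effect and 1 the higher H3K27ac effect (2.36% and 2.94% of all tested), and with TMM factors 5 and 3 (1.44% and 3.52%). The fitted difference had a median of 0.37 on the log2 scale in the 763 regions against 0.07 over all tested, and with TMM factors 0.09 against -0.14. DESeq2 called 0 as well, with 10 of the 763 at an unadjusted p under 0.05 (1.31%, against 1.47% of all tested). In simulated data on the 126134 regions only rises of H3K4me3 in CSE-KO were set. The test recovered 38% of 16-fold and 8% of 8-fold rises and none of the smaller ones, so it could miss even large differences.

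In peak2_31969, of the list of WT H3K23ac replicate 2, the marks moved apart with the lowest p. H3K27ac was 11.1 and 11.7 CPM in WT (15 and 13 counts) and 3.06 and 3.89 CPM in CSE-KO (13 and 5 counts). The count of 5 is the minimum of the rule. H3K4me3 was 35.3 and 47.9 CPM in WT and 72.7 and 57.5 CPM in CSE-KO. Neither mark's groups overlapped. The difference of the log2 fold changes was 2.37 with a standard error of 0.89 (edgeR adjusted p = 0.934). The opposite order had its lowest p in peak9_82755, where H3K4me3 was 55.5 and 60.4 CPM in WT and 12.4 and 23 CPM in CSE-KO. H3K27ac in that region was 10.4 and 17.1 CPM in WT and 15.8 and 13.2 CPM in CSE-KO, within the WT range. The difference of log2 fold changes was -1.83 with a standard error of 0.91 (edgeR adjusted p = 0.934), on 7 and 10 H3K4me3 counts in CSE-KO.

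**Figure D5:**
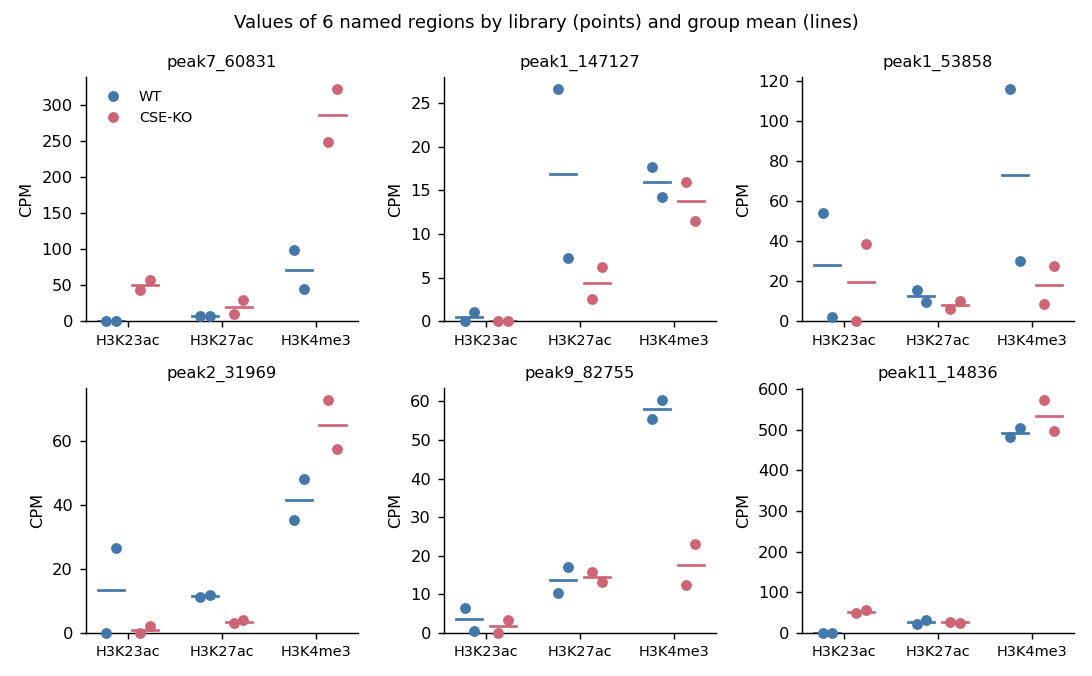
CPM of H3K23ac, H3K27ac and H3K4me3 in 6 named regions, with a point for each library, a line at the mean of the 2 libraries of a group, and WT and CSE-KO by colour. In peak7_60831 the H3K4me3 points of CSE-KO, 248 and 322 CPM, lie above those of WT, 44.4 and 98.4 CPM, whereas in peak11_14836 the genotypes overlap for H3K4me3 and H3K27ac.

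The genotype differences of the marks were also only weakly related. Spearman's coefficient between the H3K27ac and H3K4me3 differences in mean log2 CPM was 0.118 over the 763 regions and Pearson's 0.109, and 395 regions (51.8%) had the same sign in both marks. The 885 regions with counts in all 4 H3K23ac libraries gave 0.112 and 51.2%. The 2 comparisons share no library. Without WT H3K27ac replicate 1 the coefficient was 0.0536, and since the spread of the differences was close to that between replicates, so weak a coefficient is no finding.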

How the data were processed

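Whole-number counts per region and library were deposited by the authors as raw values. The submitters' processing notes list ChIPseeker 1.38.0, R 4.3.3, edgeR 4.0.16 and Subread, beside mm10 and GRCm39, without saying what each was used for. How regions were called and whether duplicate reads were removed is not given in the sources used here. Depth was 396441 to 4242014 counts per library. Each list number was read as the number of a library in sample order, an assumption behind every list of origin named here. CPM used library totals.

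Each mark's 4 libraries were fitted by genotype with edgeR 4.0.16 in R 4.3.3 (glmQLFit and glmQLFTest, two-sided, library totals as size), over regions with 5 or more counts in at least 2 libraries and 20 or more in sum, with Benjamini-Hochberg adjustment over all of them. The difference between marks was fitted in 8 libraries. Alternatives were TMM and DESeq2 1.42.0 size factors, the DESeq2 Wald test, other filters, the replicate number as a block, other minima in the rule and each library left out; 1 CPM minimum for all libraries of a mark, and the H3K23ac part of the rule without each H3K23ac library, were added after seeing the data. Standard errors are the fold change over the root of the F statistic. The fits were tested on simulated data with 200 changed regions, 50 per fold. The changed regions had a mean count of 10 or more, and all changes were rises in CSE-KO. Binomial intervals, and the floor set at 3 counts, hold counting error alone. Summaries were made in Python 3.11.15 (scipy 1.17.1, pandas 2.3.3, numpy 2.4.6).

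Regions were named by rank: lowest p per direction in each test, and the 2 most extreme by level, ratio and H3K23ac count. The regions, the rule and the tests were chosen with earlier results of these data known.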

Additional observations from a re-analysis of the deposited data

How the results depend on the processing

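Counts of called regions depended on the settings, and those of the 763 regions little. For H3K27ac, edgeR called 7 of all regions with DESeq2 size factors, 2 with the replicate number as a block, 8 without a filter and 0 with filterByExpr (363 of 10666 at an unadjusted p under 0.05), DESeq2's Wald test called 0 (713 of 100566), and leaving out 1 library gave 2 to 96. For H3K4me3, 10 were called with the replicate block and 16 without a filter, and 0 to 131 without 1 library. For the difference between marks DESeq2 size factors gave 1 call, and leaving out 1 library 0 to 2. Of the 763 regions, 0 to 3 were called without 1 library for H3K27ac and 0 to 3 for H3K4me3, and 1 for H3K4me3 with the replicate block and 1 without a filter, peak7_60831 in both cases. The 3 H3K27ac calls came without WT replicate 2, and the H3K4me3 calls were 3 without WT replicate 1 and 1 without WT replicate 2; those fits leave a lone WT library, which is assumed to vary like the other group. Same-numbered libraries did not deviate together (correlation of -0.0261 for H3K27ac and -0.0433 for H3K4me3), so the number is taken as a name only, and the block changed no other call in the 763 regions.

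The median fold change ran from -0.27 to 0.0296 for H3K27ac and from 0.11 to 0.42 for H3K4me3 without 1 library, and was -0.46 for H3K27ac in the 14 regions at 0 in all H3K23ac libraries. The coefficient of levels was 0.262 in the 75 regions with counts of 10 or more and 0.0154 in those 14, and ran from 0.0905 to 0.135 without 1 library. That of the genotype differences was 0.0698 in the 2637 regions with counts of 3 or more, 0.199 in the 75 and 0.433 in the 14, and 0.0536 to 0.137 without 1 library. The rule kept 2637 regions at a minimum of 3, 75 at a minimum of 10, 14 with 0 in all H3K23ac libraries, 309 with 1 CPM minimum, and 436 to 729 without 1 H3K23ac library. Among the 6 fold changes named for their p, 62 of 67 alternative values kept direction and side of the threshold, 5 passed it and none turned. Where a value moved, the cause was not tested.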
